A study of Apis mellifera with 2 samples.

Results

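The 3 microRNAs described here, ame-miR-124, ame-miR-7 and ame-miR-137 of the honey bee (the prefix is left out from here on), were taken by name from a table of 692 small RNA entries, of which 53 carried honey bee miRNA names. They were chosen as conserved miRNAs of neurons and of neural differentiation, and all 3 were listed with counts in both libraries. The other 50 named miRNAs served for comparison. The libraries came from whole larvae of Apis mellifera ligustica, breed 'Zhenongda No.1', which is kept for its high royal jelly yield. Both castes came from the same 3 colonies. Queen larvae had been moved to queen cups less than 18 h after hatching and were reared there, whereas worker larvae made up the other group. Larvae of both groups were taken on days 4, 5 and 6, from 73 to 138 h after hatching, and RNA of the 3 days was pooled into 1 queen library and 1 worker library. The pools mix 40 to 60 larvae per colony, and a single library per caste leaves the variation between colonies and between days unmeasured, so no test was possible and no p-value is given. Listed counts came to 2658259 for queen larvae and 2318675 for worker larvae. Levels are given as CPM, counts per 1000000 listed counts, and all intervals are 95% intervals of counting error that treat each read as a separate molecule, which PCR copies are not.

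A miRNA is cut from a hairpin transcript and guides a silencing complex to messenger RNAs that pair with its 5′ end, lowering their stability and translation. miR-124 is among the most conserved miRNAs of animals and is made mainly in neurons, where in mammals it represses transcripts of non-neuronal cells. miR-7 has an identical or nearly identical mature form in insects and mammals. In Drosophila it acts in photoreceptor and sensory organ differentiation, and in mammals it is abundant in neuroendocrine cells. miR-137 acts in neuronal maturation and at synapses in mammals.

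miR-124 and miR-7 were several-fold higher in the worker library. miR-137 was near the bottom of the named miRNAs in both libraries, and its caste ratio was too sparsely counted to place. Together the 3 miRNAs made up 0.0586% of all queen counts and 0.243% of all worker counts. At a threshold of at least 2-fold with an interval excluding 1, 2 of the 3 passed in the worker direction and 0 in the queen direction. Of all named miRNAs, 49 had at least 20 counts over both libraries, and of these 12 passed the same threshold in the worker direction (24.5%) and 1 in the queen direction (2.04%). Without the 3 miRNAs themselves, 10 of 46 passed in the worker direction (21.7%). In whole larvae, fewer cells of a type and less of the RNA per cell cannot be told apart.

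miR-124 had 550 queen counts and 2743 worker counts. Its level was 207 CPM in queen (190 to 225) and 1183 CPM in worker larvae (1139 to 1228), so the intervals lay far apart. The ratio was 5.72-fold in favour of the worker library (5.22 to 6.28), the largest in that direction among the 49 assessed named miRNAs. Ordered by level, miR-124 was 35th of the 53 named miRNAs in queen larvae and 30th in worker larvae. In queen larvae it stood just under miR-10, a miRNA of the Hox cluster, which had 212 CPM and an overlapping interval, and well above miR-278 at 130 CPM. In worker larvae it stood just under miR-9a at 1205 CPM, again with overlapping intervals, and above miR-79 at 722 CPM.

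miR-7 had 996 queen counts and 2873 worker counts, the most of the 3 in either. These gave 375 CPM in queen (352 to 399) and 1239 CPM in worker larvae (1194 to 1285), again without overlap. The ratio was 3.31-fold in favour of the worker library (3.08 to 3.56), the seventh largest in that direction. By level it was 31st in the queen library, between miR-315 at 494 CPM and miR-125 at 265 CPM, both outside its interval. In the worker library it was 26th, between miR-252 at 1243 CPM and miR-12 at 1225 CPM, and these 3 levels were within counting error of each other.

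miR-137 had 12 queen counts and 16 worker counts, or 4.51 CPM (2.33 to 7.89) and 6.90 CPM (3.94 to 11.2). The intervals overlapped widely. It was 49th of 53 in both libraries. The worker level was 1.53-fold the queen level, with an interval from 0.679 to 3.54 that holds no difference, a 2-fold difference and the ratio of miR-7. With 28 counts in all, a call in the worker direction needed at least 19 of them in the worker library, a 2.42-fold ratio, and a call in the queen direction needed 21 queen counts, a 2.62-fold ratio. Observed ratios of miR-137 smaller than these could not be called at this depth.

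**Figure D1:**
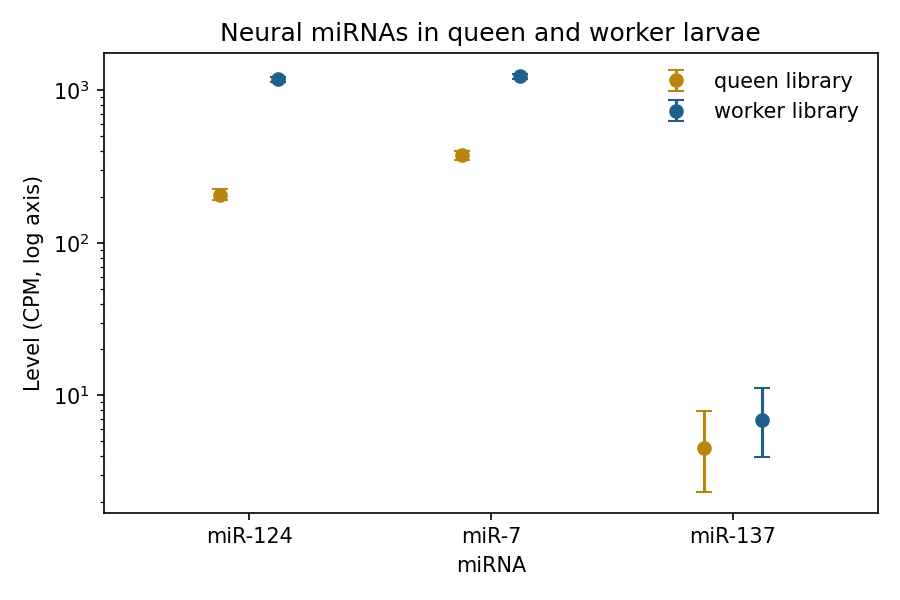
Level of miR-124, miR-7 and miR-137 in CPM (log axis) in queen and worker larvae, 1 library each, with bars for the 95% counting interval. miR-124 and miR-7 lie at 207 and 375 CPM in queen larvae and at 1183 and 1239 CPM in worker larvae, while the bars of miR-137 overlap.

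miR-7 had the highest and miR-137 the lowest level of the 3 in both castes, but the distance between miR-7 and miR-124 differed. In the queen library miR-7 stood above miR-124, with 0.552 counts of miR-124 per count of miR-7 (0.497 to 0.613). In the worker library the 2 miRNAs were close to equal, at 0.955 counts of miR-124 per count of miR-7 (0.906 to 1.01), an interval that holds 1. The queen ratio divided by the worker ratio was 0.578 (0.514 to 0.651). This value compares 2 miRNAs within each library and is therefore independent of how the libraries are scaled to each other. Ligation and PCR favour some sequences, so the ratio of 2 miRNAs within a library is not their molar ratio, but the same preference applies to both libraries if they were prepared alike.

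miR-137 lay far below both. miR-124 exceeded it 45.8-fold in queen larvae (26.0 to 89.2) and 171-fold in worker larvae (105 to 300.4). miR-7 exceeded it 83.0-fold in queen larvae (47.3 to 161) and 180-fold in worker larvae (110 to 315). Relative to miR-124, miR-137 was 3.74-fold higher in the queen library than in the worker library (1.60 to 8.48). Relative to miR-7 the same comparison gave 2.16-fold (0.930 to 4.89), an interval that holds 1. The sparse counts of miR-137 thus separate its caste ratio from that of miR-124 but not from that of miR-7.

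Each miRNA was next set against every other assessed named miRNA, again without any scaling. Which way each contrast points is fixed by the order of the caste ratios. The counts given here and below for each miRNA therefore restate that order, and add only whether the interval held 1. As miR-124 had the largest ratio in the worker direction, all of its contrasts had to point the same way. miR-124 was lower in the queen library relative to 47 of the 48 others (97.9%), and the exception was miR-263, for which the interval held 1. Against miR-275, the most abundant miRNA of both libraries, miR-124 was 6.59-fold lower in the queen library (6.01 to 7.24). Against miR-1, a muscle miRNA, it was 4.77-fold lower (4.35 to 5.24), and against bantam, a growth-promoting miRNA in Drosophila, 4.04-fold lower (3.65 to 4.48). The widest contrast was with miR-375, a miRNA of endocrine cells in vertebrates, at 16.3-fold (14.8 to 18.0).

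miR-7 was lower in the queen library relative to 40 of the 48 others (83.3%). The interval held 1 for 5 others, namely miR-133, miR-137, miR-13b, miR-263b and miR-281. For the remaining 3, miR-124, miR-263 and miR-92b, miR-7 was the one with relatively more counts in the queen library. Against miR-275 it was 3.81-fold lower there (3.55 to 4.10), against miR-1 2.76-fold (2.57 to 2.97) and against bantam 2.34-fold (2.14 to 2.54). Each of these 3 contrasts was smaller than that of miR-124 with the same partner. That follows from the value of 0.578 for miR-124 over miR-7, whichever partner is used, so the 3 are not separate results.

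miR-137 was lower in the queen library relative to 4 of the 48 others (8.33%), which were let-7, miR-305, miR-315 and miR-375. It was relatively higher there than 4 others, miR-124, miR-263, miR-263b and miR-92b. For the remaining 40 the interval held 1, so its caste ratio could not be told from that of most named miRNAs.

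The named miRNAs whose caste ratio was nearest were found by the difference in log2 ratio of queen over worker, a measure that here rests on 2 libraries and carries no sign of shared function. For miR-124, at −2.52, they were miR-263 at −2.42, miR-263b at −1.97 and miR-92b at −1.91. For miR-7, at −1.73, they were miR-13b at −1.75, miR-133 at −1.81 and miR-190 at −1.59. For miR-137, at −0.61, they were miR-10, whose 564 and 752 counts gave the same ratio, miR-33 at −0.59 and miR-29b at −0.55.

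**Figure D2:**
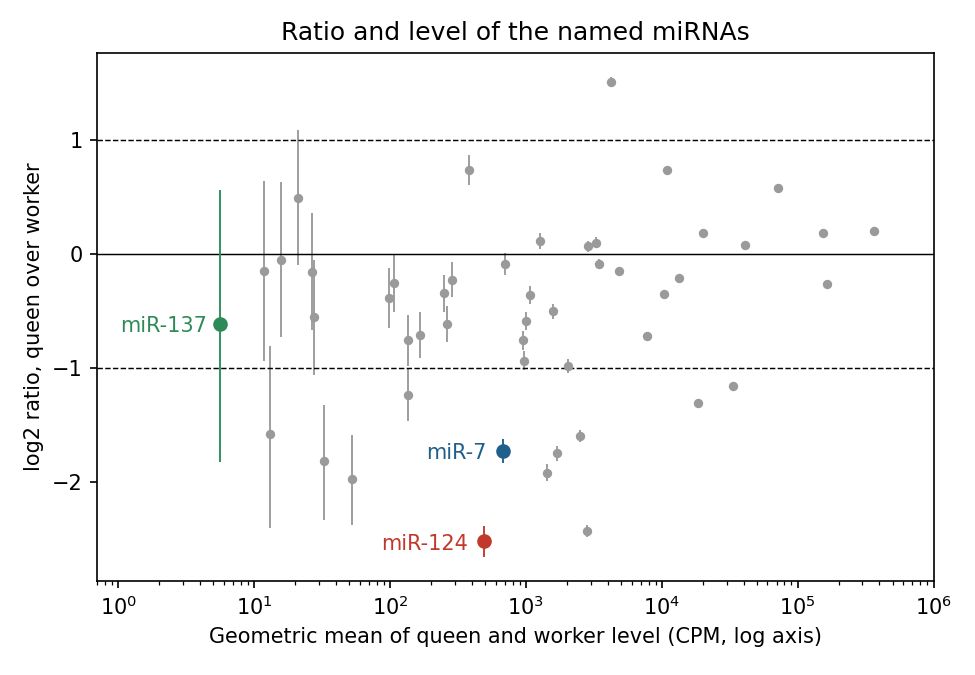
log2 ratio of queen over worker against the geometric mean level in CPM (log axis) for the 49 assessed named miRNAs, with bars for the 95% counting interval and dashed lines at 2-fold. miR-124 is the lowest point at −2.52, miR-7 lies at −1.73, and miR-137 has the lowest level and a bar from −1.82 to 0.56.

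The scaling of the libraries bears on these ratios because the few leading miRNAs make up most counts. The median log2 ratio of the 49 named miRNAs was −0.36, and miR-9a was the miRNA at that median. miR-124 lay 2.16 below the median on the log2 scale, a difference of −2.16 that no scaling changes. For miR-7 the difference was −1.37 and for miR-137 it was −0.25. Factors of edgeR's TMM method raised every log2 ratio by 0.43, the median of ratios of DESeq2 by 0.46, and leaving the 5 most abundant miRNAs out of the totals by 0.52. The log2 ratio of miR-124 then became −2.09, −2.06 and −1.99, and that of miR-7 became −1.30, −1.27 and −1.20. Both stayed past 2-fold in the worker direction. miR-137 moved to −0.19, −0.15 and −0.09 and kept an interval that holds 0.

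**Figure D3:**
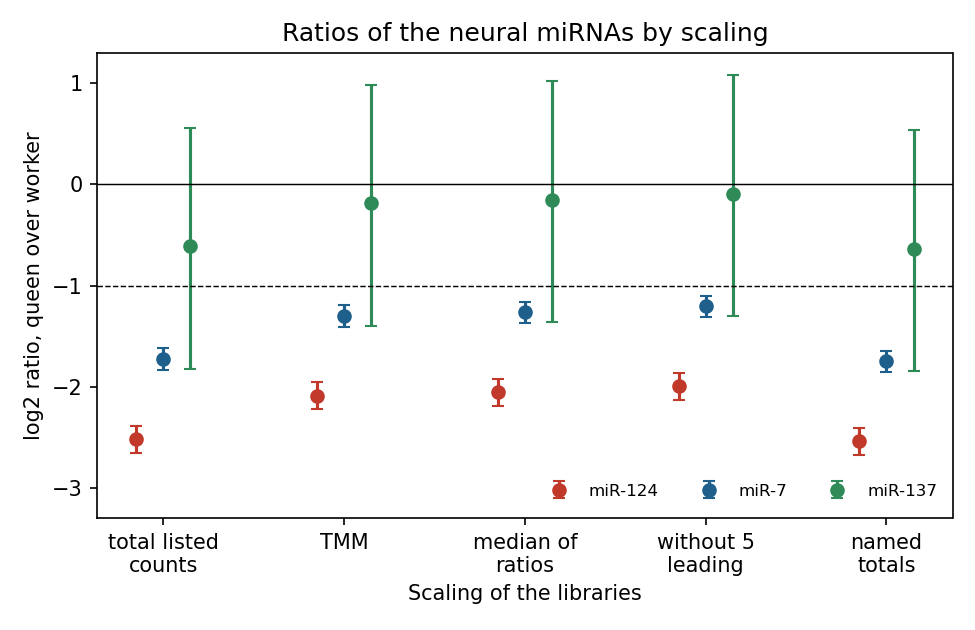
log2 ratio of queen over worker of miR-124, miR-7 and miR-137 under 5 scalings of the libraries, with bars for the 95% counting interval and a dashed line at 2-fold in the worker direction. miR-124 lies between −2.54 and −1.99 and miR-7 between −1.75 and −1.20, all below the line, and every bar of miR-137 crosses 0.

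A list of 12 further named miRNAs with known roles in the nervous system was compared with them. Of these, 10 had at least 20 counts, 2 passed the 2-fold threshold in the worker direction and 0 in the queen direction. The share in the worker direction is close to the 24.5% of all named miRNAs. The median log2 ratio of the list was −0.22, against −0.36 over the 49 named miRNAs. The 2 that passed were miR-263 and miR-263b, whose Drosophila counterparts protect sensory bristle cells from death. miR-263 had 3222 queen and 15091 worker counts, a log2 ratio of −2.42 (−2.48 to −2.37). miR-263b had 71 and 243 counts and a ratio of −1.97 (−2.37 to −1.59). Reads shared by these relatives could have been counted for either.

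The other 8 lay between −0.36 and 0.74 on the log2 scale. miR-9a, which limits the number of sensory organ precursors in Drosophila, had 2497 and 2793 counts and a log2 ratio of −0.36 (−0.44 to −0.28). It had nearly the worker level of miR-124, and relative to it miR-124 was 4.46-fold lower in the queen library (4.00 to 4.97). miR-34, tied to ageing of the Drosophila brain, had −0.25, miR-125 had −0.22 and miR-8, which acts in neuronal survival and synapse growth in Drosophila, had −0.21. miR-279, which in Drosophila restricts the formation of carbon dioxide sensing neurons, had 0.07 and miR-996 0.08. miR-276, which acts in olfactory memory in Drosophila, had 0.19, and let-7, a regulator of neuromuscular remodelling at metamorphosis, had 0.74. With TMM, median of ratios and totals without the 5 leading miRNAs, 8 of the 10 assessed had log2 ratios above 0. The exceptions were miR-263 and miR-263b. Of the 49 named miRNAs, 26, 26 and 27 were above 0 with these scalings. With TMM the intervals of miR-9a (−0.01 to 0.15) and miR-34 (−0.08 to 0.43) held 0. In the queen direction let-7 passed 2-fold at 1.16, 1.20 and 1.26, as 1 of 4, 4 and 5 named miRNAs that did. The remaining 2 of the 12 were miR-932, linked to memory in the honey bee, with 4 queen and 8 worker counts, and miR-219, with 0 and 2.

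**Figure D4:**
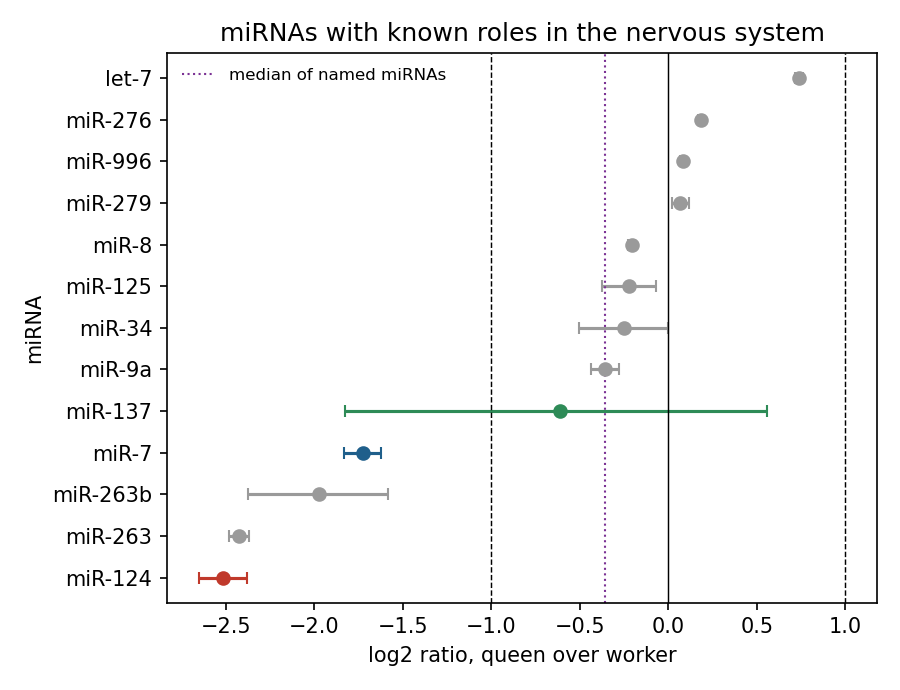
log2 ratio of queen over worker, with bars for the 95% counting interval, of miR-124, miR-7, miR-137 and the 10 assessed miRNAs of the nervous-system list, with dashed lines at 2-fold and a dotted line at the median of the named miRNAs. miR-124, miR-263, miR-263b and miR-7 lie below −1, and the other 9 lie between −0.61 and 0.74.

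Whole larvae hold other tissues, and 3 miRNAs marked some of these. The muscle miRNA miR-1 had 150096 CPM in queen and 179964 CPM in worker larvae, 1.20-fold in favour of the worker library, a direction that turned with TMM, median of ratios and totals without the 5 leading miRNAs. The other muscle miRNA, miR-133, had 17.3 and 60.8 CPM and a ratio of 3.51-fold in the same direction (2.50 to 5.01). miR-281, a miRNA of the insect midgut, had 7.52 and 22.4 CPM and a ratio of 2.98-fold (1.75 to 5.27). The ratio of miR-1 thus lay apart from those of miR-133 and miR-281, whose intervals overlapped. Both of these rest on few counts, 46 queen and 141 worker for miR-133 and 20 and 52 for miR-281. Relative to either, the interval of miR-7 held 1, whereas miR-124 was lower in the queen library. The part of tissue make-up in the ratios of miR-124 and miR-7 was not tested.

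In the RefSeq annotation of the honey bee (assembly Amel_HAv3.1), Mir7 overlaps the protein-coding gene LOC409007. The closest genes that do not overlap it are the protein-coding LOC726850 before it and 5-HT2alpha, a serotonin receptor gene, after it. Their distances are not given here. Mir124 and Mir137 overlap no annotated gene. Mir124 lies between the protein-coding genes LOC726594 and LOC410323, and Mir137 lies between the protein-coding LOC408453 and the long non-coding LOC107965483. Of the 238 annotated miRNA genes, 0 others lie within 10 kb of any of the 3, so none of them belongs to a tight miRNA cluster in that annotation.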

How the data were processed

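The authors deposited whole-number counts for each miRNA and caste, without normalization. Per the labels' protocols, Trizol RNA of 18 to 30 nt was cut from a gel, ligated to a 5′ and then a 3′ adapter, amplified by RT-PCR and sequenced on the Solexa platform. Not given in the sources used here are the aligner, the miRNA caller, the build and the handling of reads that match more than 1 miRNA. The table's 242 further columns were empty.

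Counts were divided by the library totals, 2658259 and 2318675, so that 1 count equals 0.376 CPM in the queen and 0.431 CPM in the worker library. Shares carry exact Clopper-Pearson intervals, and ratios, as well as ratios of ratios, carry exact conditional intervals. These cover counting error only. Named miRNAs with at least 20 counts over both libraries were assessed, and a ratio of at least 2 with an interval excluding 1 was a call. Calling was tested on simulated data that held counting error only, which cannot show how it performs under variation between libraries or colonies. The text names the 3 miRNAs, the 3 nearest each in log2 ratio, the next above and below in level, and the lists. These members and lists were chosen with earlier results of these data known. The contrasts with miR-275, miR-1, bantam and miR-375 were chosen after their values were seen. R 4.3.3, edgeR 4.0.16 and DESeq2 1.42.0 (scaling factors only), Python 3.11.15 and scipy 1.17.1 were used. RefSeq served for gene names and neighbours.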

Additional observations from a re-analysis of the deposited data

How the results depend on the processing

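miR-124 and miR-7 kept their calls in the worker direction with each of the 5 scalings and with a 99% interval. At a ratio of at least 4 with total listed counts, miR-124 kept its call and miR-7, at −1.73, lost it. The ratio of miR-124 was also above 4 with TMM (4.26-fold), median of ratios (4.16-fold) and named totals (5.80-fold). Without the 5 leading miRNAs it was 3.98-fold (3.63 to 4.37), below 4. Leaving the 5 leading miRNAs out of the totals raised the levels, to 1236 CPM in queen and 4923 in worker larvae for miR-124, 2238 and 5156 for miR-7, and 27.0 and 28.7 for miR-137. With totals of named miRNAs, worker levels were 1242 CPM for miR-124 and 1301 for miR-7. With a 99% interval the miRNAs relative to which miR-137 was lower in the queen library went from 4 to 1. The count of named miRNAs called in the queen direction went from 1 to 4 (TMM), 4 (median of ratios), 5 (leading miRNAs left out), 3 (ratio of 1.5) and 0 (ratio of 4). In the worker direction it went from 12 to 9 with each of these 3 scalings, 13 (named totals), 20 (ratio of 1.5) and 2 (ratio of 4). For the nervous-system list the queen count went from 0 to 1 with TMM, median of ratios, leading miRNAs left out or a ratio of 1.5, and the worker count from 2 to 1 at a ratio of 4. These changes follow from the threshold, the interval or a constant added to every log2 ratio. No paired analysis was possible because there was a single library for each caste, and none could be left out. Depth limits miR-137 most, with 28 counts.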

Other observations

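Outside the lists, 3 more named miRNAs with known roles in insect nervous tissue were looked at after their values were seen. miR-1000, which in Drosophila neurons represses the vesicular glutamate transporter, had 41 queen and 37 worker counts and a log2 queen-to-worker ratio of −0.05 (−0.73 to 0.63). miR-87, which acts in dendrite regeneration in Drosophila, had 277 and 407 counts and a log2 ratio of −0.75 (−0.98 to −0.53). miR-210, which is enriched in Drosophila photoreceptors, had 66 and 41 counts and a log2 ratio of 0.49 (−0.09 to 1.09). With scaling to the totals 0 of these 3 passed the 2-fold threshold, and of the 49 assessed named miRNAs 36 did not pass it either way. The intervals of miR-1000 and miR-210 held 0. For miR-210 this changed with the scaling. Its log2 ratio was 0.92 (0.33 to 1.51) with TMM, 0.95 (0.37 to 1.55) with median of ratios and 1.01 (0.43 to 1.61) without the 5 leading miRNAs, the last past 2-fold in the queen direction. The direction of miR-1000 turned with these 3 scalings, to between 0.38 and 0.47, with intervals that still hold 0.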
